A study of Mus musculus with 12 samples.

Results

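The transcripts of 10 plasma membrane amino acid transporter genes were followed: Slc7a1, Slc7a3, Slc1a4, Slc1a5, Slc38a1, Slc38a2, Slc7a5, Slc3a2, Slc7a11 and Slc6a9. They were taken by name, as 10 of the 32721 genes in the deposited table, and all 10 had enough reads to be tested. RNA with poly-A tails was sequenced from mouse embryonic fibroblasts (MEFs), cultured connective tissue cells, that carry floxed Vps15 alleles (Vps15f/f) in every group. Vps15, encoded by Pik3r4, is the regulatory subunit of the class 3 PI3-kinase, a lipid kinase needed for autophagy and endosomal sorting.

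The 4 groups held 3 libraries each. Vps15KO cells had received adeno-CRE, a virus carrying the recombinase that cuts out floxed DNA, and were sampled after 2 h in EBSS or in basal medium. WT cells had received adeno-GFP and were sampled after 2 h in EBSS or in basal medium. Both genotypes were sampled 5 days after transduction. Before treatment the plates had reached 90% confluence in a DMEM with 4.5 g/L of glucose and 10% FBS. The library names read pLEX_CRE and pLEX_GFP, and no label says what pLEX is. EBSS is a salt solution that lacks amino acids and serum and holds less glucose than this medium, so the lack of amino acids cannot be told apart from the other changes of medium. No group received CRE with intact Vps15 alleles, so CRE and loss of Vps15 cannot be told apart either. All libraries carry 1 batch label, and no label says that replicates came from separate cultures, so p values measure the spread between these libraries.

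Amino acids cross the plasma membrane through carriers that differ in what they take and in what drives them. Sodium-coupled carriers accumulate amino acids, exchangers trade them against each other, and some exchangers work only as a pair of a transporting light chain and the glycoprotein heavy chain encoded by Slc3a2. When amino acids run short, uncharged tRNAs switch on the kinase GCN2, which raises translation of the transcription factor ATF4. ATF4 binds amino acid response elements, DNA sites of which TGATGNAA is a common form, and several transporter genes are known as its targets. The Slc7a11 promoter of the mouse is known for a pair of such elements in opposite orientation.

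Letters of such elements are shown here as a description, and their part in the changes with EBSS was not tested. RefSeq promoters of the build GRCm38.p6, running from 250 bases before to 50 bases after a transcript start, were matched for 6 of the 10 genes. The letters TGATGNAA, on either strand, occurred in promoters of 2 of these 6 genes, Slc7a11 and Slc1a4. Counted by promoter, since a gene can have several, they occurred in 2 of 9 promoters of the 6 genes and in 3.97% of all 32851 promoters. The Slc7a11 stretch is the 250 bases before the start, minus strand, chr3:50443614-50443863. Capitals mark TGATGCAA, first base at -66 from the start, and TTGCATCA, the same letters read from the opposite strand, first base at -47.
Slc7a11 promoter: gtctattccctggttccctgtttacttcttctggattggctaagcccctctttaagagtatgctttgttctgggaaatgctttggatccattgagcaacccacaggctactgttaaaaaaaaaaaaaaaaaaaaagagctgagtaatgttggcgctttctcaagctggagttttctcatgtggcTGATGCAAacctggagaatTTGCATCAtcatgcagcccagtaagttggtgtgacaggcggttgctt
The Slc1a4 stretch is 30 bases across its start, minus strand, chr11:20332699-20332728, with the opposite-strand match in capitals, first base at -4.
Slc1a4 start: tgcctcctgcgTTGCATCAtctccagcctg
The letters TGACNNNGC of the antioxidant response element, searched on both strands, occurred in 3 of the 6 genes (Slc6a9, Slc7a1 and Slc38a2), in 4 of their 9 promoters and in 12.4% of all promoters. The E-box CACGTG occurred in 0 of the 9 and in 7.15% of all promoters. These matches are descriptions of letters in a window. Slc7a3, Slc7a5, Slc1a5 and Slc38a1 were not matched.

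Libraries held 21278921 to 21698584 reads in genes. Pik3r4 had 601.6 to 671.7 normalized counts (reads divided by a size factor per library) in Vps15KO EBSS and 632.8 to 699.8 in Vps15KO basal libraries, against 833.9 to 959.1 in WT EBSS and 863.8 to 883.7 in WT basal libraries, which left 70.7% of the WT mean in EBSS and 75.1% in basal medium. The labels do not say which part of the gene is floxed. Between replicates, WT basal replicate 2 stood apart, with a chi-square per gene of 20.0 and 19.1 against the other replicates, which differed from each other by 3.03. WT EBSS replicate 1 did so less, with 7.73 and 11.1 against 3.65. Results that change without these libraries are given both ways. Of 10 fibroblast markers, Thy1 stayed at 0 to 3.18 normalized counts in every library, while the summed level of the list was 182598 to 195544 in Vps15KO EBSS and 202499 to 211121 in Vps15KO basal libraries, against 404457 to 452383 in WT EBSS and 466808 to 490960 in WT basal libraries. The 14 markers of other cell types summed to 2731 to 3426 and 3051 to 3930 in the same Vps15KO groups and to 840 to 952 and 940 to 961 in the WT groups, almost all of it Cd68, while Epcam, Ptprc, Adgre1, Alb and Lyz2 were at 0 to 3.01. Krt8, an epithelial keratin, had 15.8 to 23.6 in Vps15KO EBSS and 0 to 1.96 in Vps15KO basal libraries, against 15.3 to 23.1 in WT EBSS and at most 3.00 in WT basal libraries, and it rose with EBSS by 1.32 ± 0.15 in Vps15KO and 1.03 ± 0.15 in WT cells. Cdh5, an endothelial cadherin, had 9.86 to 12.8 and 6.84 to 11.8 in the Vps15KO EBSS and basal libraries, against 3.02 to 4.08 and 1.06 to 3.00 in those of WT cells. Tubb3, a neuronal tubulin, was higher in Vps15KO cells by 0.78 ± 0.13 in EBSS and 0.60 ± 0.13 in basal medium, and Des, the muscle filament desmin, by 0.67 ± 0.18 and 0.57 ± 0.18. The part of these markers in the differences between genotypes and media was not tested, and in bulk RNA fewer cells of a type and less RNA per cell cannot be told apart.

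After EBSS, transcripts of most of the 10 transporters rose in both genotypes. In Vps15KO cells, 7 of the 10 genes rose, 0 fell and 3 were not called, against 52.0% of the 14279 genes tested called in either direction, 25.9% higher and 26.1% lower. In WT cells, 8 rose and 2 fell, against 62.7% of the genes tested called in either direction, 31.4% higher and 31.3% lower. Without WT EBSS replicate 3, 7 rose in WT cells, because Slc3a2 lost its call. A gene was called at an adjusted p under 0.05 in limma, a linear model with moderated errors fitted to the deposited log2 values of all genes tested. The median log2 change of the 10 was 0.43 in Vps15KO and 0.56 in WT cells, and over all genes tested it was -0.02 in both.

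Most of the 10 transcripts were also higher in Vps15KO than in WT cells. This did not hold for most other plasma membrane transporters tested, given below. The 10 genes and these others were chosen with earlier results of these data known, so the contrast between them is only a description. In EBSS, 8 of the 10 were higher in Vps15KO cells, 0 were lower and 2 were not called, against 57.2% of genes tested called in either direction, 29.4% higher and 27.8% lower. In basal medium, 8 were higher and 2 lower, against 58.5% of genes tested called in either direction, 29.3% higher and 29.2% lower. The median log2 change was 0.51 in EBSS and 0.62 in basal medium, and over all genes tested it was -0.00 and -0.01. Comparisons share groups with each other, so that counts of different comparisons are not independent.

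**Figure D1:**
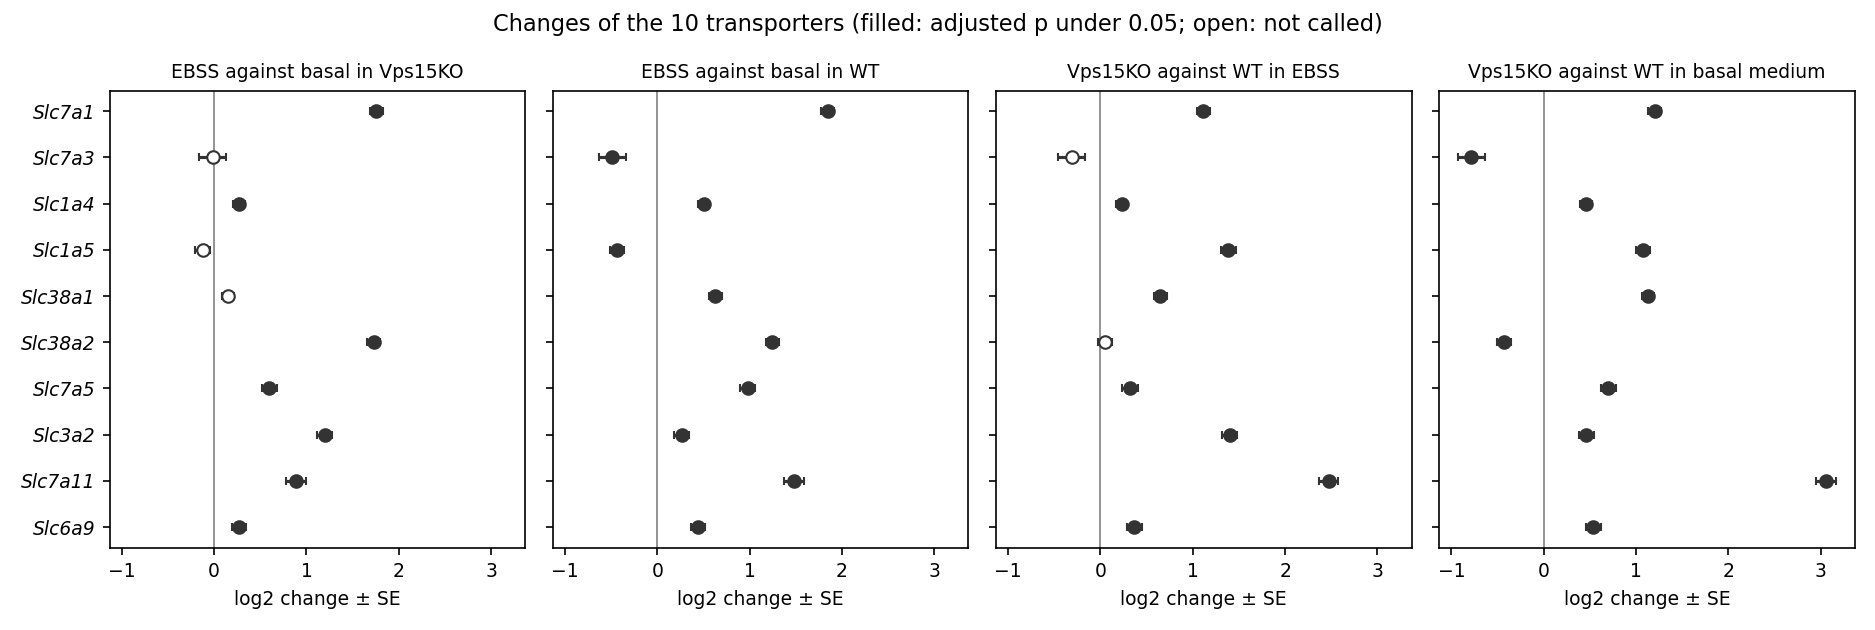
Log2 change with its standard error for each of the 10 transporters in 4 comparisons, from the limma fit to all genes tested; filled points are called at an adjusted p under 0.05. Slc7a11 lies farthest to the right in both comparisons of genotypes, and Slc7a1 and Slc38a2 are among the genes farthest to the right in both comparisons of media.

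Slc7a1 encodes CAT1, a carrier of arginine, lysine and ornithine, and lies at chr5:148327410-148399904, minus strand, in the GRCm38 (mm10) annotation of GENCODE that was used for all positions and lengths. It had 6726, 6125 and 6032 normalized counts in Vps15KO EBSS libraries and 1922, 1762 and 1843 in Vps15KO basal libraries. It had 2943, 2766 and 2967 in WT EBSS libraries and 778, 710 and 873 in WT basal libraries. The 4 groups did not overlap, and Vps15KO cells in EBSS were highest. EBSS raised it by 1.76 ± 0.07 on the log2 scale in Vps15KO cells (SE; adjusted p = 9.6e-13) and by 1.85 ± 0.07 in WT cells (adjusted p = 4.54e-13). It was higher in Vps15KO than in WT cells by 1.11 ± 0.07 in EBSS (adjusted p = 2.91e-10) and by 1.20 ± 0.07 in basal medium (adjusted p = 1.25e-10). The 2 EBSS effects differed by -0.09 ± 0.10, which was not called (adjusted p = 0.60). Of the 10 genes it changed most with EBSS in WT cells, on the scale of these log2 changes. In Vps15KO cells it lay close to Slc38a2, which rose by 1.73 ± 0.07, and these changed most. Their order depended on the processing: Slc38a2 reached 1.83 in an alternative run, and Slc7a1 at most 1.79 in any.

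Slc7a3 encodes CAT3, another cationic amino acid carrier known mainly from brain, and lies at chrX:101079146-101090452, minus strand. Per length of exon it was the lowest of the 10 in every group but WT basal, where Slc7a11 was lower. It had 9.83, 8.88 and 20.7 normalized counts in Vps15KO EBSS and 13.7, 9.80 and 15.7 in Vps15KO basal libraries. WT EBSS libraries had 20.1, 19.3 and 20.4, and WT basal libraries 38.1, 41.3 and 29.99. The Vps15KO groups overlapped each other, and all WT basal libraries were above all others. It fell with EBSS in WT cells (log2 change -0.49 ± 0.14, adjusted p = 0.00698) and was lower in Vps15KO than in WT cells in basal medium (-0.78 ± 0.14, adjusted p = 0.000153). In Vps15KO cells the EBSS change was -0.02 ± 0.14 (adjusted p = 0.933), and in EBSS the genotypes differed by -0.31 ± 0.14 (adjusted p = 0.0746). Without Vps15KO EBSS replicate 3, the highest of its group, the last difference was -0.48 and was called (adjusted p = 0.00744), as it was with equal medians (adjusted p = 0.0451) and with trends of length and GC content removed (adjusted p = 0.0427). A log2 change of the deposited values understates the ratio of genes with so few reads: the Vps15KO mean in basal medium was 0.358 times the WT mean.

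Slc1a4 and Slc1a5 encode ASCT1 and ASCT2, sodium-dependent exchangers of neutral amino acids, of which ASCT2 is a main route for glutamine. Slc1a4 lies at chr11:20302180-20332713, minus strand, and Slc1a5 at chr7:16781334-16798274, plus strand. Slc1a4 had 3680, 3616 and 3763 normalized counts in Vps15KO EBSS and 3174, 2963 and 3024 in Vps15KO basal libraries, against 3161, 3043 and 3218 in WT EBSS and 2016, 2381 and 2246 in WT basal libraries. Vps15KO basal and WT EBSS libraries overlapped, with Vps15KO EBSS above and WT basal below them. Slc1a4 rose with EBSS by 0.27 ± 0.06 in Vps15KO cells (adjusted p = 0.00145) and by 0.50 ± 0.06 in WT cells (adjusted p = 1.55e-06). It was higher in Vps15KO cells by 0.23 ± 0.06 in EBSS (adjusted p = 0.00415) and by 0.46 ± 0.06 in basal medium (adjusted p = 4.93e-06). The EBSS effects differed by -0.23 ± 0.09 (adjusted p = 0.0769), and it was called with WT basal replicate 2 left out (adjusted p = 0.0068) or trends of length and GC content removed (adjusted p = 0.0168).

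Slc1a5 had 2891, 2855 and 3113 normalized counts in Vps15KO EBSS and 3076, 3267 and 3333 in Vps15KO basal libraries. WT EBSS libraries had 1142, 987 and 1220, and WT basal libraries 1375, 1650 and 1537. The Vps15KO groups overlapped, and both were far above the WT groups, which were separate from each other. Its level was 1.39 ± 0.08 higher on the log2 scale in Vps15KO cells in EBSS (adjusted p = 6.18e-11) and 1.07 ± 0.08 higher in basal medium (adjusted p = 1.94e-09). Unlike most of the 10, it fell with EBSS in WT cells (-0.44 ± 0.08, adjusted p = 9.3e-05). In Vps15KO cells the change was -0.13 ± 0.08 and was not called (adjusted p = 0.187), though it was called with quantile normalization (adjusted p = 0.0227) and with only the groups compared in the fit (adjusted p = 0.0333). The 2 EBSS effects differed by 0.31 ± 0.11, which was not called (adjusted p = 0.0587). Leaving out WT EBSS replicate 3 gave a call (adjusted p = 0.0293), as did a fit without WT basal replicate 1 (adjusted p = 0.0200) and a fit without WT basal replicate 2 and WT EBSS replicate 1 (adjusted p = 0.0451).

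Slc38a1 and Slc38a2 encode SNAT1 and SNAT2, sodium-coupled carriers that load cells with small neutral amino acids, and SNAT2 is known to be induced when amino acids are withdrawn. The genes lie close together on the minus strand, at chr15:96571418-96643438 and chr15:96687392-96699728. Slc38a1 had 1929, 1856 and 1939 normalized counts in Vps15KO EBSS and 1759, 1656 and 1741 in Vps15KO basal libraries. In WT cells it had 1295, 1159 and 1169 in EBSS and 805, 699 and 815 in basal medium. The 4 groups did not overlap, and both Vps15KO groups were above both WT groups. It rose with EBSS in WT cells by 0.63 ± 0.07 (adjusted p = 2.8e-07), and by 0.41 with trends of length and GC content removed. In Vps15KO cells its change was 0.15 ± 0.07, not called (adjusted p = 0.0747), and -0.09 with those trends removed. That change was called without WT basal replicate 2 (adjusted p = 0.0174), without WT basal replicate 2 and WT EBSS replicate 1 (adjusted p = 0.0092) and with only the groups compared in the fit (adjusted p = 0.0120). The EBSS effect was smaller in Vps15KO than in WT cells by -0.48 ± 0.10 (adjusted p = 0.00203). The gene was higher in Vps15KO cells by 0.65 ± 0.07 in EBSS (adjusted p = 1.96e-07) and by 1.13 ± 0.07 in basal medium (adjusted p = 1.51e-10).

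Slc38a2 had 28669, 27575 and 26353 normalized counts in Vps15KO EBSS and 8775, 8094 and 8035 in Vps15KO basal libraries. The WT libraries had 26347, 27067 and 26236 in EBSS and 12096, 9806 and 11730 in basal medium. The EBSS groups overlapped at a common high level, and in basal medium all Vps15KO libraries were below all WT libraries. EBSS raised it by 1.73 ± 0.07 in Vps15KO cells (adjusted p = 1.91e-12) and by 1.25 ± 0.07 in WT cells (adjusted p = 1.04e-10), a difference of 0.48 ± 0.10 (adjusted p = 0.00378). In basal medium it was lower in Vps15KO cells (-0.43 ± 0.07, adjusted p = 7.25e-05). In EBSS the genotypes differed by 0.05 ± 0.07, which was not called (adjusted p = 0.574). With quantile normalization the last difference was 0.28 and was called (adjusted p = 0.0045). The nearby Slc38a1 was thus higher in Vps15KO cells in both media, while Slc38a2 was called lower in basal medium.

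**Figure D2:**
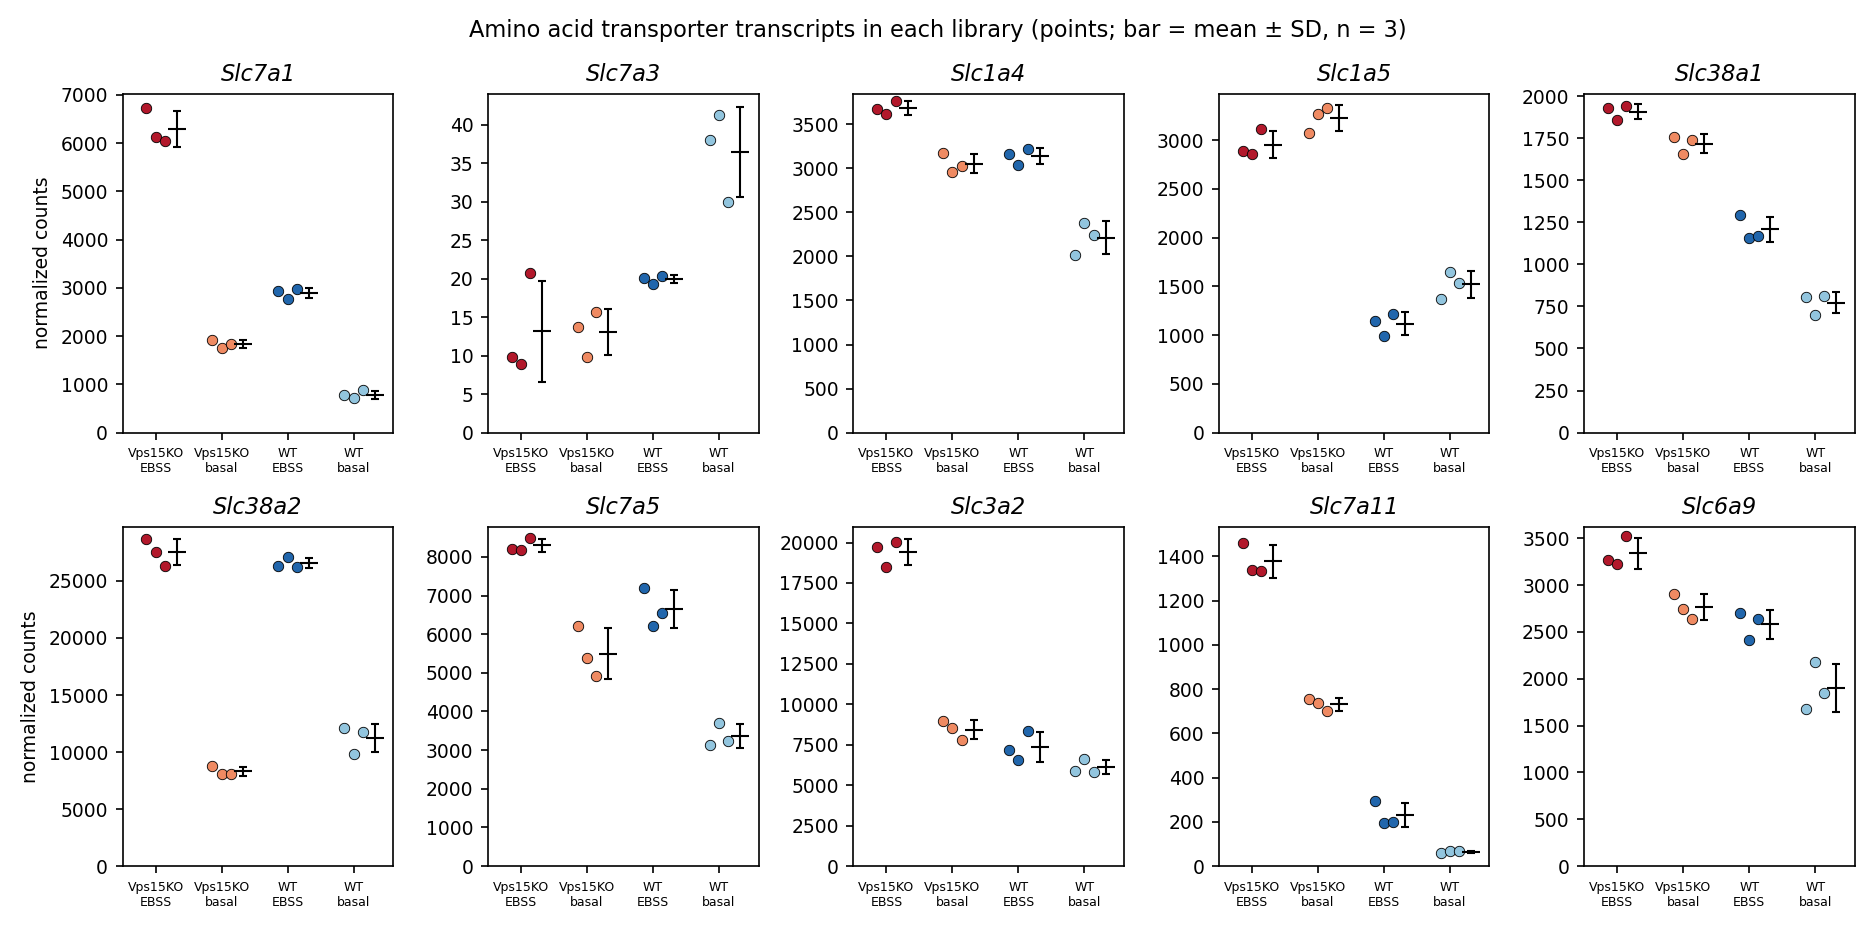
Normalized counts of each transporter in the 12 libraries (points) with the mean and SD of each group of 3; every axis starts at 0. Slc7a1, Slc7a5, Slc7a11 and Slc38a1 show 4 separate groups, Slc38a2 is high in both EBSS groups, and Slc1a5 is high in both Vps15KO groups.

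Slc7a5 encodes LAT1, the light chain that exchanges large neutral amino acids such as leucine, and lies at chr8:121881146-121907686, minus strand. It had 8207, 8187 and 8501 normalized counts in Vps15KO EBSS and 6212, 5374 and 4907 in Vps15KO basal libraries. WT EBSS libraries had 7185, 6224 and 6551, and WT basal libraries 3137, 3712 and 3237. The groups did not overlap, though the highest Vps15KO basal library came close to the lowest WT EBSS library. Slc7a5 rose with EBSS by 0.60 ± 0.08 in Vps15KO cells (adjusted p = 7.7e-06) and by 0.98 ± 0.08 in WT cells (adjusted p = 9.85e-09). It was higher in Vps15KO cells by 0.32 ± 0.08 in EBSS (adjusted p = 0.00257) and by 0.70 ± 0.08 in basal medium (adjusted p = 8.05e-07). The difference of the EBSS effects, -0.38 ± 0.12, was called (adjusted p = 0.0281), but the call was lost without Vps15KO EBSS replicate 1 or 2, Vps15KO basal replicate 1, WT EBSS replicate 1 or WT basal replicate 1 or 3, with adjusted p values of 0.0528 to 0.0862. It was also lost with quantile normalization (adjusted p = 0.0854), with no filter (adjusted p = 0.0665) and with no variance trend (adjusted p = 0.0716).

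Slc3a2 encodes the heavy chain 4F2hc, also called CD98, which brings LAT1, xCT and other light chains to the cell surface. It lies at chr19:8706882-8723369, minus strand. Vps15KO EBSS libraries had 19713, 18472 and 20033 normalized counts, and Vps15KO basal libraries 8955, 8548 and 7819. WT EBSS libraries had 7181, 6563 and 8343, and WT basal libraries 5881, 6624 and 5837. Vps15KO EBSS libraries stood far above all others, and WT EBSS libraries overlapped both basal groups. The log2 rise with EBSS was 1.20 ± 0.08 in Vps15KO cells (adjusted p = 9e-10) and 0.26 ± 0.08 in WT cells (adjusted p = 0.00888). In WT cells the call was lost without WT EBSS replicate 3, where the change was 0.17 (adjusted p = 0.0749), and with quantile normalization (adjusted p = 0.0798). The EBSS effect was larger in Vps15KO cells by 0.94 ± 0.11 (adjusted p = 2.07e-05), the largest difference of EBSS effects among the 10. Slc3a2 was higher in Vps15KO cells by 1.40 ± 0.08 in EBSS (adjusted p = 8.36e-11) and by 0.46 ± 0.08 in basal medium (adjusted p = 8.29e-05).

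Slc7a11 encodes xCT, the light chain that imports cystine in exchange for glutamate and so feeds glutathione synthesis. Its locus spans chr3:50364936-50499087, minus strand, and its promoter with the pair of elements is printed above. It had 1462, 1336 and 1332 normalized counts in Vps15KO EBSS and 757, 736 and 699 in Vps15KO basal libraries. WT libraries had far fewer, 292, 196 and 200 in EBSS and 60.1, 67.7 and 67.0 in basal medium. The 4 groups were far apart, and WT EBSS replicate 1 lay above the other WT EBSS libraries. In basal medium Vps15KO cells had 11.2 times the WT mean of normalized counts. Log2 changes of the deposited values understate such ratios for this gene, as for Slc7a3. On the log2 scale Slc7a11 was higher in Vps15KO cells by 3.06 ± 0.11 in basal medium (adjusted p = 2.43e-13) and by 2.47 ± 0.11 in EBSS (adjusted p = 2.15e-12), the largest change of any of the 10. EBSS raised it by 0.89 ± 0.11 in Vps15KO cells (adjusted p = 1.9e-06) and by 1.48 ± 0.11 in WT cells (adjusted p = 1.74e-09). The EBSS effect was smaller in Vps15KO cells by -0.59 ± 0.15 (adjusted p = 0.0119), and in every alternative run this difference kept its call.

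Slc6a9 encodes GlyT1, a sodium- and chloride-coupled glycine carrier, and lies at chr4:117835258-117869305, plus strand. Vps15KO EBSS libraries had 3266, 3221 and 3525 normalized counts, and Vps15KO basal libraries 2909, 2740 and 2637. WT EBSS libraries had 2700, 2410 and 2633, and WT basal libraries 1677, 2178 and 1848. Vps15KO basal and WT EBSS libraries overlapped, with Vps15KO EBSS above and WT basal below them. Slc6a9 rose with EBSS by 0.27 ± 0.08 in Vps15KO cells (adjusted p = 0.0083; 0.0536 with quantile normalization) and by 0.44 ± 0.08 in WT cells (adjusted p = 0.000101). It was higher in Vps15KO cells by 0.37 ± 0.08 in EBSS (adjusted p = 0.000663) and by 0.54 ± 0.08 in basal medium (adjusted p = 1.35e-05). The EBSS effects differed by -0.17 ± 0.11, not called (adjusted p = 0.322), but called without WT basal replicate 2 (adjusted p = 0.0209). Its values are uncertain, because exons of Slc6a9 overlap those of Ccdc24 and B4galt2 on the opposite strand and no source says whether counting used the strand. B4galt2 had a mean of 1391 reads.

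Of the 10 EBSS effects, 5 differed between genotypes, against 17.8% of the genes tested. The effects of Slc3a2 and Slc38a2 were larger in Vps15KO cells (9.55% of genes tested were called in this direction). The effects of Slc7a5, Slc7a11 and Slc38a1 were smaller (8.24% in this direction). Without WT basal replicate 2 the difference of log2 changes, Vps15KO minus WT, was called negative for 5 genes, with Slc1a4 and Slc6a9 added. Without WT basal replicate 2 and WT EBSS replicate 1 it was called negative for 5 and positive for 3, Slc1a5 being added to the positive ones. In each of Slc7a5, Slc7a11 and Slc38a1, Vps15KO cells in basal medium already had more transcript than WT cells in basal medium. In Slc38a2 they had less. In Slc3a2, whose EBSS effect was larger in Vps15KO cells, they also had more, by 0.46 ± 0.08 on the log2 scale. The part of the basal level in these differences was not tested.

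**Figure D3:**
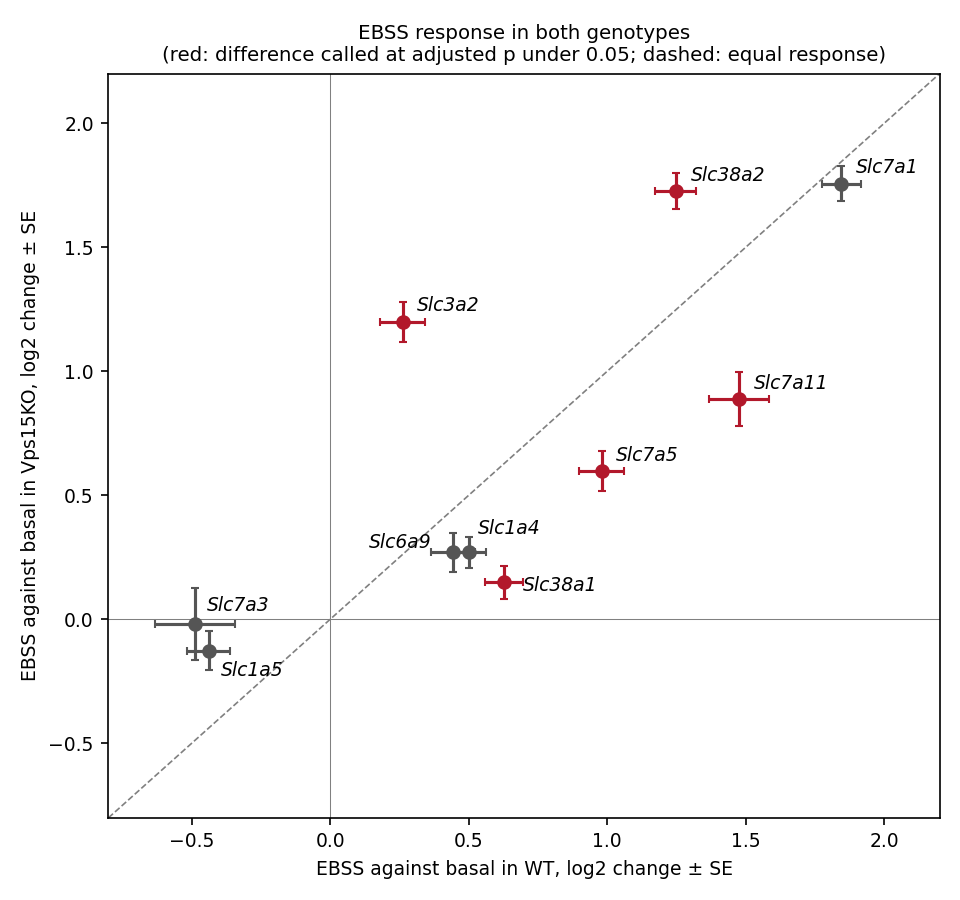
Log2 change with EBSS in WT cells (x axis) against that in Vps15KO cells (y axis) for each transporter, with standard errors; red marks genes whose change differed between genotypes at an adjusted p under 0.05. Slc3a2 (1.20 in Vps15KO and 0.26 in WT cells) lies farthest above the line of equal response, and Slc7a11 (0.89 and 1.48) farthest below it.

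Per length of exon, levels of different genes can be compared roughly. By this measure Slc3a2 led in Vps15KO EBSS, Vps15KO basal and WT basal cells. It had 259, 113 and 79.5 RPKM there (reads per kilobase of exon, scaled to the reads in genes of a library). In WT EBSS cells Slc38a2 led at 137 RPKM, with Slc3a2 at 94.8. Slc7a5, Slc3a2 and Slc38a2 held the top 3 places in every group. Slc7a11, for all its change, was at 4.65 ± 0.258 RPKM in Vps15KO EBSS and 2.49 ± 0.0962 in Vps15KO basal libraries, against 0.750 ± 0.183 in WT EBSS and 0.214 ± 0.0125 in WT basal libraries (SD, n = 3 each). The 10 genes together summed to 654 ± 16.1 RPKM in Vps15KO EBSS and 342 ± 18.9 in Vps15KO basal libraries, against 400 ± 16.3 in WT EBSS and 245 ± 3.66 in WT basal libraries. The sums of the 4 groups did not overlap. The annotation used in counting is not given in the sources used here, so lengths are those of all GENCODE exons of a gene joined. A joined length can exceed that of the transcripts present, so the order of different genes is approximate.

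**Figure D4:**
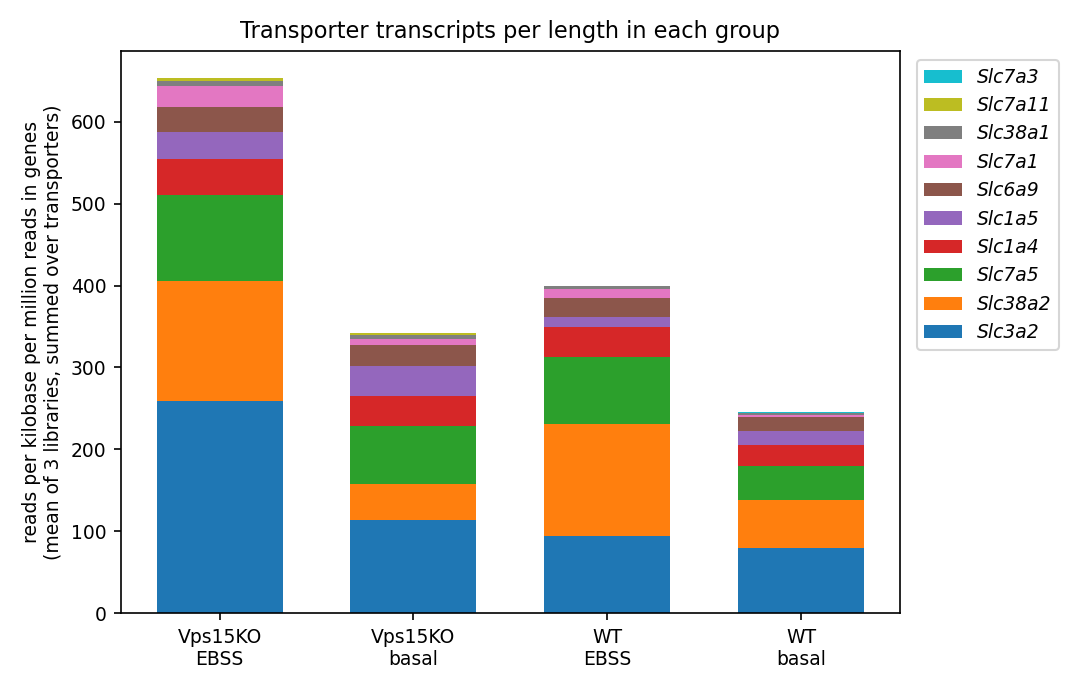
RPKM, mean of 3 libraries, stacked over the 10 transporters in each group. The stack is tallest in Vps15KO EBSS cells (654) and lowest in WT basal cells (245), and the Slc3a2 and Slc38a2 segments change most in height.

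The level of the heavy chain was also set against the summed level of its light chains. Light chains that pair with Slc3a2 and were in the table, Slc7a5, Slc7a6, Slc7a7, Slc7a8 and Slc7a11, summed to 133 ± 2.25 RPKM in Vps15KO EBSS and 92.1 ± 9.31 in Vps15KO basal libraries, against 116 ± 7.27 in WT EBSS and 63.1 ± 0.939 in WT basal libraries (SD, n = 3 each). The ratio of Slc3a2 to this sum was 2.00, 1.86 and 1.96 in Vps15KO EBSS and 1.18, 1.27 and 1.25 in Vps15KO basal libraries. In WT EBSS libraries it was 0.756, 0.775 and 0.924, and in WT basal libraries 1.25, 1.31 and 1.22. In value the ratio was higher in EBSS than in basal medium in Vps15KO cells and lower in EBSS than in basal medium in WT cells, without overlap in either genotype, while the basal groups of both genotypes overlapped. Slc7a5 made up 78.9% of the light chain sum in Vps15KO EBSS and 76.2% in Vps15KO basal cells, against 70.3% in WT EBSS and 65.9% in WT basal cells. The ratio is given as a description, and its difference between groups was not tested. Slc7a10 was not analysed here.

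**Figure D5:**
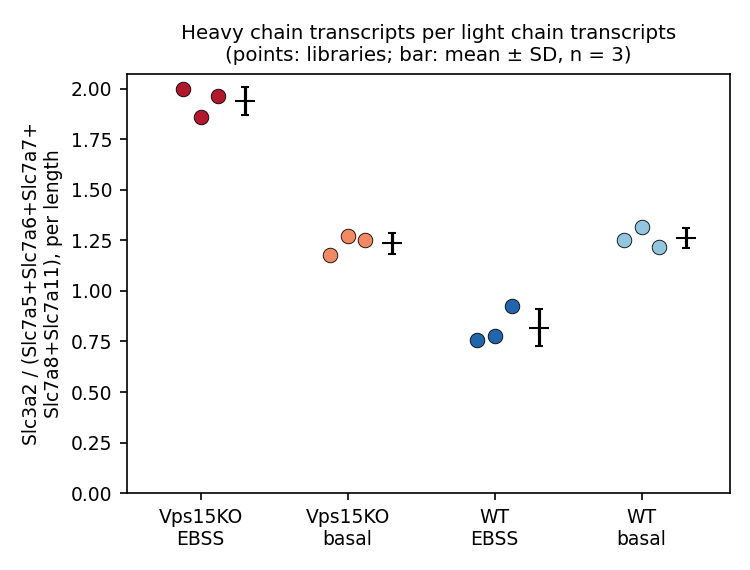
Ratio of Slc3a2 to the sum of 5 light chain transcripts, each per length, in the 12 libraries (points) with mean and SD of each group of 3. Vps15KO EBSS libraries lie at 1.86 to 2.00 and WT EBSS libraries at 0.756 to 0.924, with both basal groups in between.

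Over the 12 libraries, the genes whose levels ran most nearly parallel to a transporter differed from gene to gene. For each, the 3 highest Pearson correlations among all genes tested are given as a description, since the libraries share 4 groups and any gene with the same order of groups scores high. Slc7a11 ran closest to Tars and Nars, tRNA synthetases for threonine and asparagine, and to Gbp6 (r of 0.995, 0.994 and 0.994). Slc3a2 ran closest to Sesn2, which encodes a leucine-binding stress protein, to the phosphate carrier gene Slc20a1 and to Bhlhe40 (0.990, 0.986 and 0.983). Slc7a1 ran closest to Atp6v1h, a subunit of the proton pump of lysosomes, to Arhgap12 and to Lmo4 (0.996, 0.994 and 0.994). The nearest genes of Slc38a2 were Dido1, Epc1 and Yy2 (0.997, 0.993 and 0.992), and those of Slc38a1 were Zbtb18, Naa25 and Abcc4 (0.995, 0.993 and 0.991). Slc7a5 had Orc2, Tom1 and the creatine carrier gene Slc6a8 (0.982, 0.980 and 0.977), and Slc1a5 had Steap1, Usp39 and Dnm2 (0.993, 0.992 and 0.992). Slc1a4 had Gadd45a, Arih2 and Hnrnpc (0.978, 0.977 and 0.976). Slc6a9 had Slc1a4, Cdkn1a and Pes1 (0.973, 0.973 and 0.969), and Slc7a3 had Gm8399, Fam189b and Vamp2 (0.957, 0.952 and 0.951).

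Other genes of amino acid transport and its control were counted in lists, beside the 10. These counts stand against the shares of all genes tested. With EBSS, 25.9% were called higher and 26.1% lower in Vps15KO cells, and 31.4% and 31.3% in WT cells. Between genotypes, 29.4% were higher and 27.8% lower in Vps15KO cells in EBSS, and 29.3% and 29.2% in basal medium. The difference of EBSS effects was called positive for 9.55% and negative for 8.24%. Of 11 other plasma membrane transporters tested, of 31 listed, EBSS raised 5 in Vps15KO and 9 in WT cells and lowered 0 in either. Against WT, Vps15KO cells had 2 higher and 6 lower in EBSS, and 3 higher and 6 lower in basal medium. The median log2 changes were -0.23 and -0.16, where the 10 had medians of 0.51 and 0.62. Both sets were chosen with earlier results of these data known, so their medians are set side by side as a description. Some of the 11 had few reads, such as Slc3a1, with group means of 5.22 to 17.0 normalized counts. Slc16a10, which encodes the aromatic amino acid carrier TAT1, rose by 0.83 ± 0.08 in Vps15KO and 1.73 ± 0.08 in WT cells, a called difference of -0.90 ± 0.11 (adjusted p = 2.03e-05). Slc7a6, a light chain partner of Slc3a2, rose by 0.27 ± 0.06 in Vps15KO and 0.65 ± 0.06 in WT cells, a called difference of -0.39 ± 0.09 (adjusted p = 0.00676). The difference of log2 changes with EBSS, Vps15KO minus WT, was called negative for 5 of the 11 and positive for 0.

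Among 10 lysosomal amino acid carriers tested, EBSS raised 4 and lowered 1 in Vps15KO cells and raised 4 and lowered 3 in WT cells. Slc36a1, which encodes a proton-coupled exporter of lysosomes, rose by 1.23 ± 0.07 in Vps15KO and 1.09 ± 0.07 in WT cells. Vps15KO cells had 6 higher and 2 lower in EBSS and 4 higher and 0 lower in basal medium, and the difference of EBSS effects was positive for 3 and negative for 0. Of 9 mitochondrial carriers, EBSS raised 3 and lowered 2 in Vps15KO cells and raised 4 and lowered 0 in WT cells. Vps15KO cells had 2 of these higher and 4 lower in EBSS and 3 higher and 4 lower in basal medium, and the difference of EBSS effects was positive for 1 and negative for 2. Slc25a44, which encodes a carrier of branched-chain amino acids, rose by 1.77 ± 0.06 in Vps15KO and 1.24 ± 0.06 in WT cells.

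The transporters were set beside 16 genes of the amino acid response, of which EBSS raised 12 and lowered 0 in Vps15KO cells and raised 11 and lowered 2 in WT cells. Vps15KO cells had 14 higher and 0 lower in EBSS and 13 higher and 0 lower in basal medium, and the difference of EBSS effects was positive for 7 and negative for 1. A positive difference is a larger rise or a smaller fall in Vps15KO cells. Atf4 itself had a mean of 28588 normalized counts in Vps15KO EBSS and 15318 in Vps15KO basal cells, against 10874 in WT EBSS and 9093 in WT basal cells. Its EBSS effect was larger in Vps15KO cells by 0.64 ± 0.13 (adjusted p = 0.00256). Asns, the asparagine synthetase gene and a known target of ATF4, was 1.65 ± 0.08 higher in Vps15KO cells in EBSS and 1.56 ± 0.08 higher in basal medium, and its EBSS changes of -0.01 ± 0.08 in Vps15KO and -0.09 ± 0.08 in WT cells were not called. Chac1, which encodes an enzyme that breaks down glutathione, was 2.92 ± 0.13 higher in Vps15KO cells in EBSS and 2.17 ± 0.13 higher in basal medium, and in WT cells it fell with EBSS by 0.77 ± 0.13 on the log2 scale. The part of this response in the changes of the transporters was not tested.

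Of 9 genes of the NRF2 and glutathione response, which also acts on Slc7a11, EBSS raised 6 and lowered 1 in Vps15KO cells and raised 7 and lowered 1 in WT cells. Vps15KO cells had 6 higher and 1 lower in EBSS and 8 higher and 1 lower in basal medium. The difference of EBSS effects was negative for 5 of the 9 and positive for 0, and the part of these genes in the changes of Slc7a11 was not tested. Hmox1, the heme oxygenase gene, rose with EBSS by 1.20 ± 0.06 in Vps15KO and 2.80 ± 0.06 in WT cells, and Gclc, which encodes the first enzyme of glutathione synthesis, was 1.42 ± 0.11 higher in Vps15KO cells in EBSS and 1.93 ± 0.11 higher in basal medium. Of 10 genes for trafficking and turnover of transporters, EBSS raised 2 and lowered 5 in Vps15KO cells and raised 5 and lowered 5 in WT cells. Vps15KO cells had 3 higher and 5 lower in EBSS and 4 higher and 4 lower in basal medium, and the difference of EBSS effects was positive for 1 and negative for 4. Nedd4l, which encodes a ubiquitin ligase of membrane proteins, was 1.31 ± 0.08 higher in Vps15KO cells in EBSS and 1.42 ± 0.08 higher in basal medium. Txnip, which encodes an arrestin-like protein that promotes uptake of glucose carriers, fell with EBSS by 2.16 ± 0.08 on the log2 scale in Vps15KO and by 0.89 ± 0.08 in WT cells.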

How the data were processed

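RNA with poly-A tails was sequenced in 12 libraries on a DNBSEQ-G400, with a protocol that marks strand by dUTP, per the labels' protocols. The build mm10 and the tools featureCounts, STAR 2.7.10b, limma and DESeq2 appear in the submitters' processing notes. Whether counting used the strand is not given in the sources used here. The deposited table holds 32721 genes as log2 values, which the authors had transformed to stabilize the variance. A count of 0 is its floor, 3.83. Working the transformation back gave whole reads for 100% of values within 0.001 and size factors of 0.945 to 1.02, and reads divided by these are the normalized counts. RPKM used joined exon lengths of GENCODE M21, and a count of 0 allows up to 3 reads.

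Genes averaging 1 or more above the floor, 14279 in all, were fitted with limma 3.58.1 in R 4.3.3, with a mean per group and a variance trend. Tests were two-sided, with Benjamini-Hochberg adjustment over these genes in each comparison. The genes, lists and tests were chosen with earlier results of these data known. All 10 transporters are named, and of each list the counts and some of the up to 4 genes with the smallest p in a comparison. Lists were the other plasma membrane, lysosomal and mitochondrial carriers, the amino acid response, NRF2 and glutathione, trafficking, and fibroblast and other cell type markers. Between EBSS and basal libraries of the same replicate number, correlations of residuals were -0.155 to 0.0125, and between genotypes they were 0.039 to 0.26. With 3 libraries per group these values cannot show whether libraries were paired. Alternatives were a replicate block, other filters, quantile normalization, equal medians, no variance trend, log2 of the normalized count plus 1, a fit of only the groups compared, voom on worked-back reads, removal of length and GC trends, each library left out in turn, and WT basal replicate 2 and WT EBSS replicate 1 left out together. The fit was tested on simulated data.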

Additional observations from a re-analysis of the deposited data

Results flagged for a closer look

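The effect of EBSS differed between genotypes for 5 of the 10 transporters by the interaction term of the limma fit, adjusted over all genes tested. The difference of log2 changes, Vps15KO minus WT, was 0.94 for Slc3a2 and 0.48 for Slc38a2, whose rise was larger in Vps15KO cells. It was -0.59 for Slc7a11, -0.48 for Slc38a1 and -0.38 for Slc7a5, whose change was smaller in Vps15KO cells. That of Slc7a5 lost its call without any of 6 libraries taken out singly, as given with its values. Groups of 3 libraries were not tested for a single library far from the rest.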

How the results depend on the processing

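Of 456 recomputed counts, 447 stayed within 1.5 times their value and 9 moved. Of 1135 recomputed log2 changes of single transporters, 1106 kept their call or lack of one, 17 gained a call and 12 lost it. Of called changes 0 turned round. Changes called in neither run counted as kept even where their direction turned. That of Slc38a1 with EBSS in Vps15KO cells did so, from 0.15 to -0.09 with length and GC trends removed. With the filter at 3 above the floor Slc7a3 was not tested, and 1 transporter fell in WT cells after EBSS and 1 was lower in Vps15KO cells in basal medium, in place of 2 each. With quantile normalization, and with only the groups compared in the fit, 1 transporter fell with EBSS in Vps15KO cells, in place of 0. With equal medians, and with length and GC trends removed, 1 was lower in Vps15KO cells in EBSS, in place of 0. Without WT basal replicate 2 and WT EBSS replicate 1 together, the difference of EBSS effects, Vps15KO minus WT, was called negative for 5 transporters, in place of 3. The cause was not tested. Leaving out each library in turn, the transporters lower in Vps15KO cells in EBSS numbered 0 to 1 (1 without Vps15KO EBSS replicate 3), and negative differences of EBSS effects 2 to 5 (5 without WT basal replicate 2). Under the replicate block, 4475 genes were called higher and 4464 lower with EBSS in WT cells, against 4486 and 4468 in the main fit. The transporters called stayed at 7 higher and 0 lower with EBSS in Vps15KO cells and at 8 and 2 in WT cells. Between genotypes they stayed at 8 and 0 in EBSS and 8 and 2 in basal medium, and for the difference at 2 and 3. The block thus changed no count of transporters called. No scaling moved the median of all genes tested by 0.1 or more. Depth limits Slc7a3, with 9 to 39 reads per library, more than the other transporters.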
